A study of Rattus norvegicus with 4 samples.

Results

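The peptide signals of pain-sensing neurons and the receptors that read them were followed here through 8 genes of 32623 in the deposited matrix, taken by symbol. They are Calca and Calcb, the genes of calcitonin gene-related peptide (CGRP), Calcrl and Ramp1, which together form the CGRP receptor, Tac1 and Tacr1, the substance P precursor and its NK1 receptor, Adcyap1, the PACAP precursor, and Penk, the enkephalin precursor. All 8 symbols were found, and 7 of the 8 genes had at least 1 unique molecular identifier (UMI, a tag that marks a captured RNA molecule). Tacr1 had 0 UMIs in all spots.

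The tissue was trigeminal root, semilunar ganglion and proximal branches of wild type adult male Sprague-Dawley rats, laid on 4 Visium capture areas. TN1, TN2 and TN3 each held the compressed side of 1 animal of the trigeminal neuralgia (TN) model, in which the trigeminal root is compressed mechanically on 1 side, and the tissue was taken once behavior had stabilized (no day of sampling was found). The healthy control (HC) area held tissue of 2 animals on a single area, and the barcodes do not tell these animals apart. The series description takes HC from the healthy side of 2 of the 3 TN animals, whereas the methods describe sham-operated animals, and the compared tissues may thus come from opposite sides of the same rats. The areas held 1587, 1256, 1917 and 2013 spots with 23546025, 38769935, 32239597 and 41335930 UMIs in TN1, TN2, TN3 and HC. TN1 had the fewest UMIs per spot (median 9487, against 14480 to 30808 elsewhere) and the largest mitochondrial share (11.6%, against 5.90% to 7.81%). A spot covers several cells, and 2337 of the 3573 distinct barcode sequences occur in more than 1 area, so spots were always told apart by area.

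CGRP and substance P are made in the cell bodies of small, peptidergic sensory neurons, packed into dense core vesicles and released from both the central and the peripheral ends of the axon. In the trigeminal system CGRP is known as a vasodilator of the meninges and a driver of headache, and it acts through Calcrl, a receptor that needs the partner Ramp1 to bind CGRP and that binds adrenomedullin when it pairs with Ramp2 or Ramp3. Substance P acts on Tacr1, PACAP on Adcyap1r1 and the VIP receptors, and the enkephalins on the opioid receptors, where they dampen transmission. Because the Calca gene also encodes calcitonin by alternative splicing, a UMI of Calca does not show which of its products it came from.

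Spots were clustered without the 8 genes or the peptide pathway genes, and clusters were placed by marker lists. The ganglion region is the set of spots in clusters 1 and 5, where the sensory neuron list (12 genes such as Prph, Avil and Scn10a) scored highest, and it had 313, 417, 419 and 947 spots in TN1, TN2, TN3 and HC. Cluster 1 was led by Tac1, Nefl and Necab1, and cluster 5 by Csrp3, Gal, Reg3b, Vgf and Vip. Most HC ganglion spots lay in cluster 1 (938, against 9 in cluster 5), whereas TN2 had 43 and 374 and TN3 had 125 and 294. Cluster 5 was named narrowly, at 0.826 for the sensory neuron list against 0.567 for peripheral myelin, where a gap under 0.25 left a cluster unnamed. The like cluster was unnamed with 8 clusters and was named connective tissue with log-normalized clustering. The ganglion comparison of TN with HC thus depends on this naming. Other regions were named for peripheral myelin, central myelin, astrocytes, central neurons, connective tissue, and blood and bone, and cluster 3 stayed unnamed. Differences between regions are descriptions with no test, since regions were made from the same spots. Levels by region are counts per 1000000 UMIs of the region (CPM), and values with ± are means and SD over the areas that had 20 or more such spots.

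Calca and Tac1 were high in the same spots and their promoters are shown for that reason. These are the 250 bases before the gene start in the coding direction, from RefSeq on GRCr8, chr1:178317530-178317779 on the minus strand for Calca and chr4:36645333-36645582 on the plus strand for Tac1. The capitals mark TGACG, or its reverse complement CGTCA, the half-site of the cyclic AMP response element.
Calca: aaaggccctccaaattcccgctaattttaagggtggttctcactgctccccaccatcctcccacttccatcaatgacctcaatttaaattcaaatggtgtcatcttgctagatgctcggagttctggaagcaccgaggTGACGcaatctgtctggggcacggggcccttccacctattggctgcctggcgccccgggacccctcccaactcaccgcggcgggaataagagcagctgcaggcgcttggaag
Tac1: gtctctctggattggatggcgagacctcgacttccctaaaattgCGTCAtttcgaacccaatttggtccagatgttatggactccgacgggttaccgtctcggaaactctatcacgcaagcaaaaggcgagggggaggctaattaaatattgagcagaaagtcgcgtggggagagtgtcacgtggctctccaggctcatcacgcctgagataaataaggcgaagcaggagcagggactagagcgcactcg
The match begins 112 bases before the start of Calca and 206 bases before that of Tac1. Of the 6 members with a promoter entry, Tacr1 was the only other with a match, 69 bases before its start, and none was found for Calcrl, Ramp1 or Adcyap1 in this window. TGACG or CGTCA stood in 6097 of 33469 RefSeq promoters of this length (18.2%), so the letters are common, and a match is no evidence of binding.

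Calca was a ganglion gene. In the ganglion region it reached 1062, 1317, 1207 and 1223 CPM in TN1, TN2, TN3 and HC, a mean of 1202 ± 106 (SD, n = 4), and that region held 81.4% of its 105685 UMIs. Of the UMIs of all genes, it held 49.2%, 44.6%, 34.1% and 74.5% in TN1, TN2, TN3 and HC. All 4 areas stood far above central myelin, where the mean was 193 ± 35.7 (n = 4), and above central neuron spots at 135 ± 5.95 (n = 2). Calcb, the second CGRP gene, followed the same map, with 142 ± 15 CPM in the ganglion region (n = 4) and 23.2 ± 8.58 in central myelin (n = 4). The ratio of Calca to Calcb UMIs in the ganglion region was 7, 9.12, 10 and 8.02 in TN1, TN2, TN3 and HC.

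Tac1, which encodes substance P, also had most of its UMIs in the ganglion region (84.6% of 78500). Its level there was 963, 651, 938 and 1093 CPM in TN1, TN2, TN3 and HC. TN2 was the lowest of the 4, and the mean was 911 ± 186 (n = 4), against 124 ± 50.2 in central myelin (n = 4) and 88.8 ± 6 in astrocyte spots (n = 2). Calca and Tac1 were found in the same ganglion spots, with a UMI of both in 98.7%, 98.8%, 83.8% and 99.8% of them in TN1, TN2, TN3 and HC. Alone, Calca was found in 100%, 99.3%, 87.6% and 99.9% of these spots and Tac1 in 98.7%, 99%, 86.2% and 99.8%. In TN1, TN2 and HC these single shares left almost no room for another share with both. A spot can hold several neurons, so a UMI of both does not place the genes in 1 cell. Over ganglion spots within an area, Spearman's rho between Calca and Tac1 was 0.69 (313 spots), 0.69 (417), 0.64 (419) and 0.56 (947), and between Calca and Calcb 0.48, 0.64, 0.55 and 0.33, as descriptions over spots that share a library and neighbors.

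Outside the ganglion region, CGRP and substance P RNA was seen in every region, at lower levels than in the ganglion region. The highest of these were in HC. Calca and Tac1 reached 584 and 475 CPM there in blood and bone, and 568 and 525 in peripheral myelin. The blood and bone cluster, over all areas, also scored 0.617 on the sensory neuron list, the highest outside the ganglion region (peripheral myelin -0.138). Its spots thus held sensory neuron RNA in general. The peripheral myelin score is that of 861 spots, of which 56 lay in HC, so it does not describe the HC spots alone. Thinning to 2000 UMIs a spot left out spots with fewer, among them 63 ganglion and 31 central myelin spots of TN3, the most of any area. Of the ganglion spots kept, 76.7%, 76.9%, 77.2% and 85.1% in TN1, TN2, TN3 and HC had a Calca UMI after thinning. This was against 32.6%, 30.5%, 28.6% and 35.8% of the central myelin spots kept. Without thinning, over all spots of these regions, these shares were 100%, 99.3%, 87.6% and 99.9% against 55.8%, 67.9%, 49.1% and 87.6%. The median was 26350 to 39915 UMIs per ganglion spot and 4189 to 10863.5 per central myelin spot. Central myelin should hold no sensory cell bodies, so its shares stand here as the level for comparison. The ratio of Calca to Tac1 UMIs was higher in every region of TN2 than in any region of the other areas, whose ranges overlapped. It was 2.02 in the ganglion region of TN2 and 2.11 to 2.54 in that area's other regions, whereas it was 1.10 and 1.04 to 1.49 in TN1, 1.29 and 1.46 to 1.63 in TN3, and 1.12 and 1.08 to 1.29 in HC. The source of these UMIs was not tested.

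Adcyap1 and Penk, the other peptide precursors, had different maps. Adcyap1 lay mostly in the ganglion region (80.7% of 6999 UMIs), at 92.2, 129, 88.6 and 44.4 CPM in TN1, TN2, TN3 and HC, so that HC was the lowest area. No other region averaged above 27.3 CPM. Penk was highest in central neuron spots, which were present in TN1 (77.4 CPM, 431 UMIs) and TN2 (64.6 CPM, 200 UMIs) and had fewer than 20 spots in TN3 and HC. The ganglion region held 50.7% of the 2142 Penk UMIs. Its level there was 20.3, 9.13, 3.19 and 21.3 CPM in TN1, TN2, TN3 and HC, from 235, 158, 35 and 657 UMIs. These areas fell into a higher pair, TN1 and HC, and a lower pair.

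**Figure D1:**
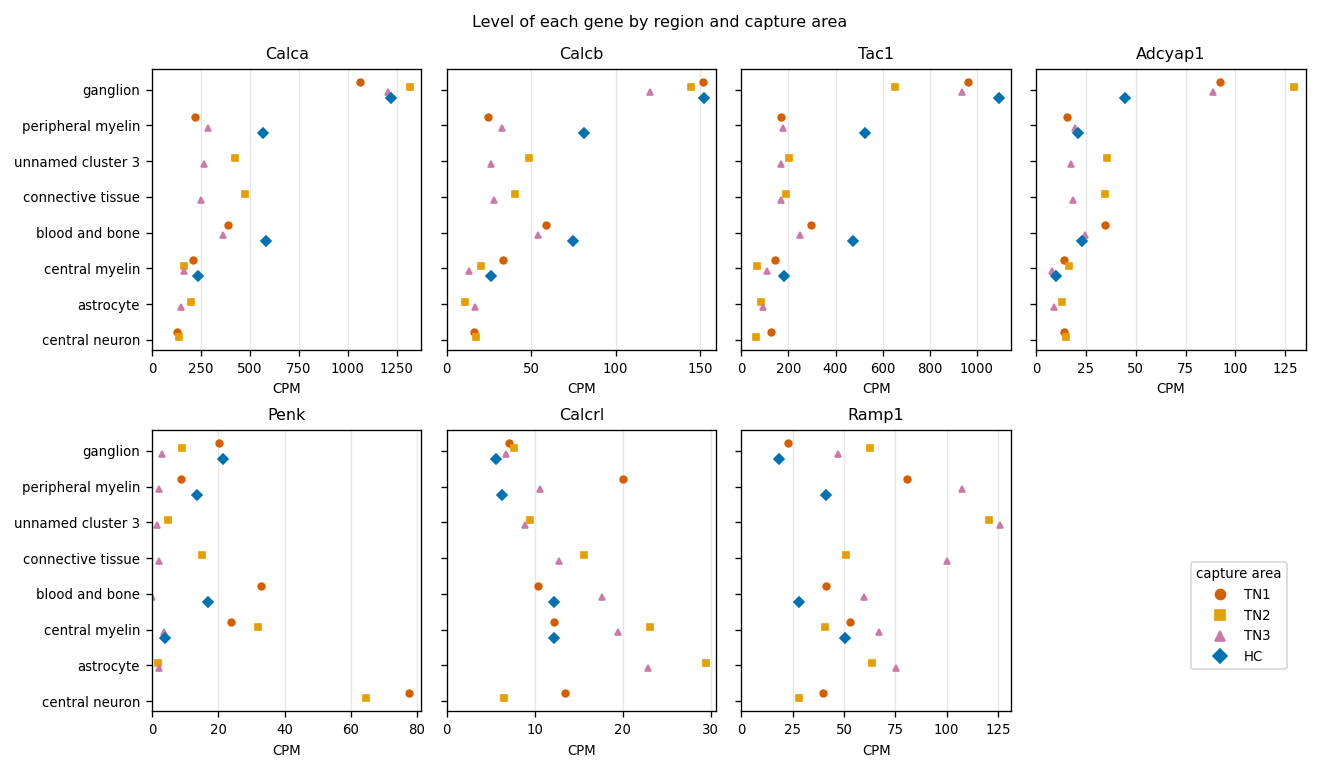
Level of each gene (x axis, CPM) in each region (y axis), 1 point per capture area with 20 or more spots of that region; symbols and colors mark the area. Calca, Calcb, Tac1 and Adcyap1 are highest in the ganglion region in every area, Penk is highest in central neuron spots at 64.6 to 77.4, and Calcrl and Ramp1 are highest outside the ganglion region.

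The CGRP receptor genes had their highest CPM outside the ganglion region, although both were also found in it. Calcrl, the CGRP and adrenomedullin receptor, had 1294 UMIs in all, of which 35.7% fell in the ganglion region. Its level was highest in astrocyte spots (29.4 CPM in TN2 and 22.8 in TN3) and its mean was lowest in the ganglion region (7.08, 7.68, 6.74 and 5.61 CPM in TN1, TN2, TN3 and HC, mean 6.78 ± 0.869), although in TN2 the central neuron spots were lower, at 6.46. Between these lay central myelin at 16.7 ± 5.49 (n = 4), connective tissue at 14.2 ± 2.03 (n = 2), blood and bone at 13.4 ± 3.77 (n = 3), peripheral myelin at 12.3 ± 7.07 (n = 3), central neuron spots at 9.96 ± 4.96 (n = 2) and cluster 3 at 9.18 ± 0.441 (n = 2), of which neighbors in this order do not differ beyond their spread. Over 29 sums by cluster and area, the genes with a profile most like that of Calcrl were Plek, Klra2, Cx3cr1, Csf1r and Bmpr1a (Pearson r from 0.85 down to 0.81), and Cx3cr1 and Csf1r are known markers of macrophages and microglia.

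Ramp1, the subunit that gives Calcrl its affinity for CGRP, was highest in the unnamed cluster 3 (121 CPM in TN2 and 126 in TN3), which was led by Gpr83, Thbs2 and Col18a1 and scored close to both connective tissue and peripheral myelin. Peripheral myelin followed at 80.5 in TN1, 107 in TN3 and 41.1 in HC. In the ganglion region Ramp1 stood at 22.7, 62.5, 47.2 and 18.3 CPM in TN1, TN2, TN3 and HC, so TN1 was close to HC and the other TN areas were well above it. Among the genes most like Ramp1 over the 29 sums were Smim11a, Rps2, Serf2 and Rpl27a (r from 0.86 down to 0.85), of which Rps2 and Rpl27a encode ribosomal proteins.

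Tacr1, the substance P receptor, had 0 UMIs among 135891487, which allows a level of up to 0.0221 CPM over the series (3 counts) and a UMI in up to 0.0443% of the 6773 spots. The limit covers counting error only. Build and annotation were not given, so whether reads of this gene could be counted at all cannot be told. With 0 UMIs the gene entered no test.

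The partners of these receptors were placed in the same way. Ramp2, the adrenomedullin partner of Calcrl, was highest in connective tissue (162 ± 7.63 CPM, n = 2) and was 98.9 ± 5.78 in the ganglion region (n = 4). Ramp3 was highest in central myelin (98 ± 29.7, n = 4). Adcyap1r1, the PACAP receptor, reached 61.2 ± 12.6 CPM in central myelin (n = 4), 54.6 ± 0.813 in astrocyte spots (n = 2) and 47 ± 1.98 in central neuron spots (n = 2), against 7.62 ± 2.76 in the ganglion region (n = 4), where its ligand was highest. Mme, the protease neprilysin that degrades substance P, was highest in peripheral myelin (27 ± 13.8, n = 3). Oprm1, the mu opioid receptor, averaged 0.165 CPM in the ganglion region (n = 4), too low to compare.

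Spots were also grouped by how much of their RNA came from the sensory neuron list, which holds none of the 8 genes. Calca was 98 to 195 CPM in the 4 areas where the list took 0.02% to 0.05% of UMIs, and 1004, 1184, 1148 and 1157 in TN1, TN2, TN3 and HC where it took over 0.2%. Tac1 in the spots over 0.2% was 898, 576, 867 and 1030, and TN2 was again the lowest. Adcyap1 was 86, 113, 83.5 and 42.4 in these spots, so each TN area stood above HC among spots rich in sensory neuron RNA. Calcrl went the other way. In the TN areas it went from 15.2 to 19.3 CPM at 0.02% to 0.05% down to 6.84 to 7.70 over 0.2%, and in HC from 13.6 at 0.05% to 0.1% down to 6.21, with 0 UMIs in the 30 HC spots at 0.02% to 0.05%.

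**Figure D2:**
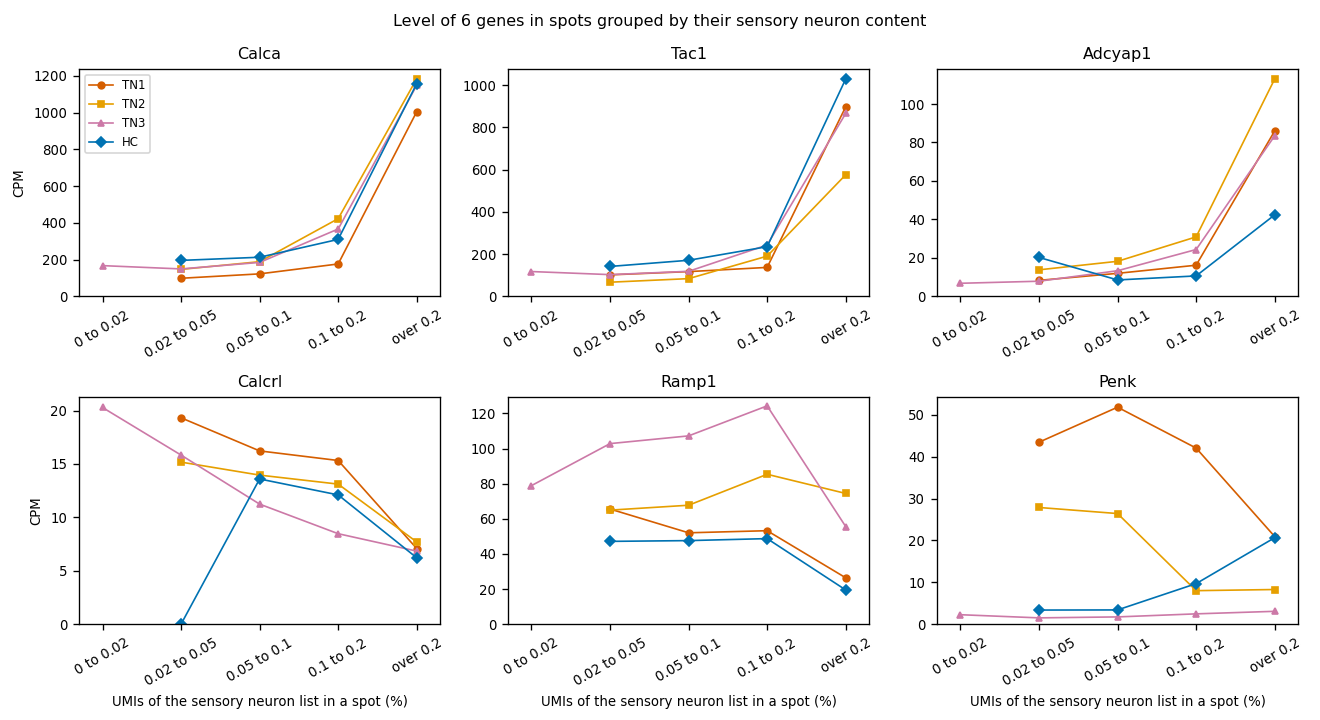
Level (y axis, CPM) of 6 genes in spots grouped by the share of their UMIs taken by the sensory neuron list (x axis, percent), 1 line per capture area, bins with 20 or more spots. Calca and Tac1 climb steeply in the last bin in all 4 areas, Adcyap1 reaches 83.5 to 113 in the TN areas and 42.4 in HC, and Calcrl and Ramp1 are lower in the last bin than in the one before it.

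The comparison of TN with HC asked whether compression of the root was accompanied by other levels of these genes in the ganglion. UMIs of ganglion spots were added up within each area, and a quasi-likelihood test (edgeR, TMM normalization, Benjamini-Hochberg adjustment) set the TN sums against that of HC. Of the 8 genes, 7 passed the filter on low counts. None of the 7 was called at an adjusted p of 0.05, where the percentage called among all 13061 genes tested was 0% (edgeR; 1296 had an unadjusted p under 0.05, and DESeq2 called 132). At an unadjusted p under 0.05, 1 of the 7 was higher in TN and none was lower, against 4.72% higher and 5.21% lower among all genes. Calcrl, Ramp1 and Adcyap1 lay above HC in all 3 TN areas, as did 28.6% of all genes. Calcb, Tac1 and Penk lay below it in all 3, as did 30% of all genes. With HC as a single area the test lends it the spread of the TN areas, and a difference between conditions cannot be told apart from one between capture areas. Fewer cells of a type and less RNA per cell cannot be told apart either.

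Adcyap1 had the lowest p of the 8 genes. Its normalized level was 91.1, 126 and 88.5 CPM in TN1, TN2 and TN3, against 46 in HC. Every TN area was above the single HC area, by 1.92 to 2.74 times, and 28.6% of all genes also lay above HC in all 3 TN areas. The log2 fold change was 1.15 ± 0.27 (SE; edgeR adjusted p = 0.496), the only one of the 7 with an unadjusted p under 0.05. Over the alternatives the log2 fold change stayed between 0.95 and 1.35 and the adjusted p ranged from 0.0123 to 0.896. It was called, at an adjusted p of 0.0332, with DESeq2, which called 0.872% of genes as higher, and, at 0.0123, without TN1, where edgeR called 4.91% as higher.

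The CGRP genes showed little difference in the ganglion. Calca was 1050, 1287, 1206 and 1268 CPM in TN1, TN2, TN3 and HC, with TN2 above HC and TN1 and TN3 below (log2 fold change -0.10 ± 0.19, edgeR adjusted p = 0.860). Calcb was 150, 141 and 120 in TN1, TN2 and TN3, all below the 158 of HC, a difference close to its SE (log2 fold change -0.20 ± 0.19, edgeR adjusted p = 0.706). Both turned to a higher level in TN, without being called, when cluster 1 alone stood for the ganglion (0.49 and 0.31), with 8 clusters (0.44 and 0.28) and with log-normalized clustering (0.42 and 0.25), settings that left TN2 with 43, 50 and 58 ganglion spots. Scaled to the sensory neuron list in place of all UMIs, Calca was also higher in TN (0.12). The sign of the difference for these genes thus changed with the choice of spots, and for Calca with the scaling. Cluster 1 alone, 8 clusters and log-normalized clustering each left the cluster led by Csrp3 and Gal out of the ganglion region. They are therefore the same kind of change and not separate checks.

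Tac1 was 952, 636 and 937 CPM in TN1, TN2 and TN3 and 1133 in HC. TN2 was the lowest area and HC the highest, and the difference was not called (log2 fold change -0.43 ± 0.27, edgeR adjusted p = 0.582). Its sign also turned, to 0.13 with cluster 1 alone, 0.055 with 8 clusters and 0.077 with log-normalized clustering. Penk, at 20.1, 8.92, 3.18 and 22.1, had TN1 close to HC and TN2 and TN3 well below it (-1.04 ± 0.81, adjusted p = 0.651). Without TN1 its log2 fold change was -1.83 with an adjusted p of 0.0216, in a fit that called 2.81% of genes as lower.

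Of the parts of the CGRP receptor, Ramp1 was higher in TN without being called, whereas Calcrl differed from HC by no more than its SE. Ramp1 was 22.4, 61.1 and 47.1 CPM in TN1, TN2 and TN3 and 19 in HC (log2 fold change 1.20 ± 0.55, edgeR adjusted p = 0.507). TN1 was within 1.18 times of HC. Over the alternatives the log2 fold change ranged from 0.43 to 1.51. The highest was without TN1, the TN area nearest to HC, and rests on TN2 and TN3 against HC alone. With cluster 1 alone it was 0.43 (adjusted p = 0.687). Calcrl was 7, 7.51 and 6.73 against 5.82, from 74 to 173 UMIs an area, a difference within its SE (0.28 ± 0.29, edgeR adjusted p = 0.730). Among cells other than neurons, markers of connective tissue and macrophages were higher in TN in these spots (median log2 fold change 1.24 and 1.21). Those of peripheral myelin, central myelin, astrocytes, and blood and bone were lower (-0.30, -0.91, -0.74 and -1.02). The summed level of the 6 connective tissue markers was 1263, 3427 and 3049 CPM in TN1, TN2 and TN3 and 1262 in HC, with none at 0, and that of the 7 macrophage markers was 266, 579 and 407 against 152, with none at 0. Their part in the result was not tested.

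**Figure D3:**
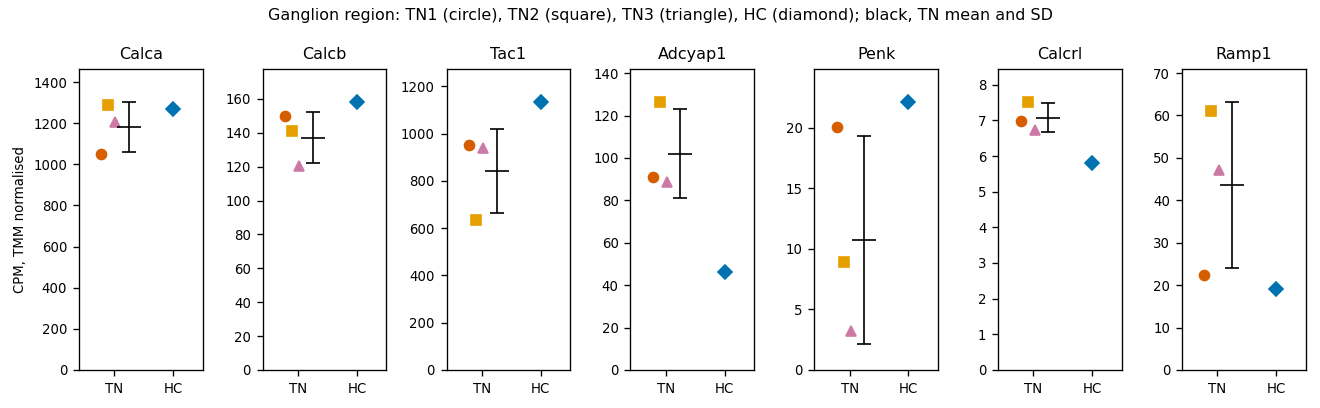
Normalized level (y axis, CPM after TMM scaling, from 0) of each gene in the ganglion region of TN1 (circle), TN2 (square), TN3 (triangle) and HC (diamond); the black line and bars are the TN mean and SD (n = 3). Adcyap1 is higher in every TN area than in HC, Tac1 and Calcb are lower in every one, and TN1 lies close to HC for Penk and Ramp1.

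**Figure D4:**
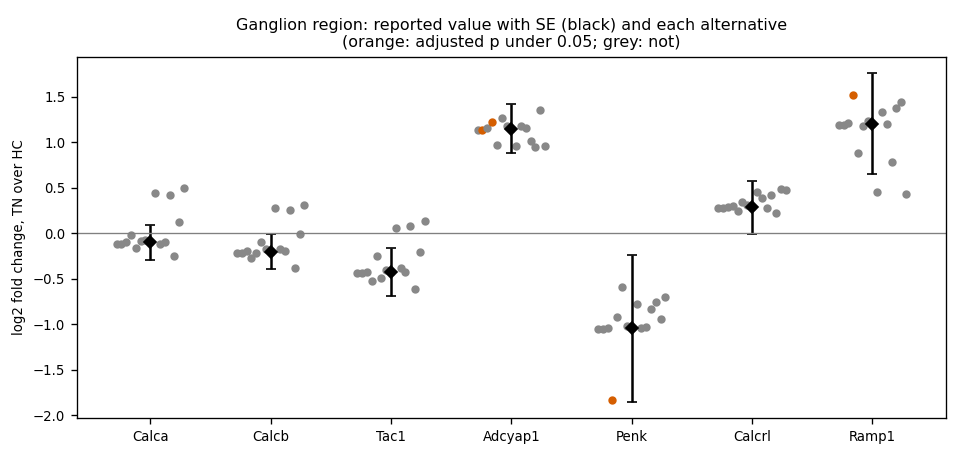
Log2 fold change of TN over HC in the ganglion region (y axis) for each gene, with the reported value and its SE in black and each alternative setting as a point, orange where its adjusted p was under 0.05. Adcyap1 stays between 0.95 and 1.35, whereas Calca, Calcb and Tac1 have points on both sides of 0.

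The levels of the members were also read in both ganglion clusters of the TN areas, and the members had no part in the clustering. Calca was 846, 1045 and 1048 CPM in cluster 5 of TN1, TN2 and TN3, and 1144, 2893 and 1378 in cluster 1. Tac1 was 668, 498 and 744 in cluster 5 and 1076, 1540 and 1147 in cluster 1, so both genes were lower in cluster 5 in each TN area. TN2 had the largest gap, with only 43 spots in cluster 1. Adcyap1 was the reverse, 106, 133 and 100 in cluster 5 and 86.8, 108 and 76.1 in cluster 1. HC, whose cluster 1 spots held Adcyap1 at 44.4 CPM, was below cluster 1 of each TN area. Ramp1 was higher in cluster 5 by 1.85, 2.42 and 2.03 times, and these are descriptions with no test. The clusters also differed in content. Cluster 5 scored lower than cluster 1 on the sensory neuron list (0.826 against 1.314) and higher on peripheral myelin (0.567 against 0.231). The part of this difference in the ratios was not tested.

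**Figure D5:**
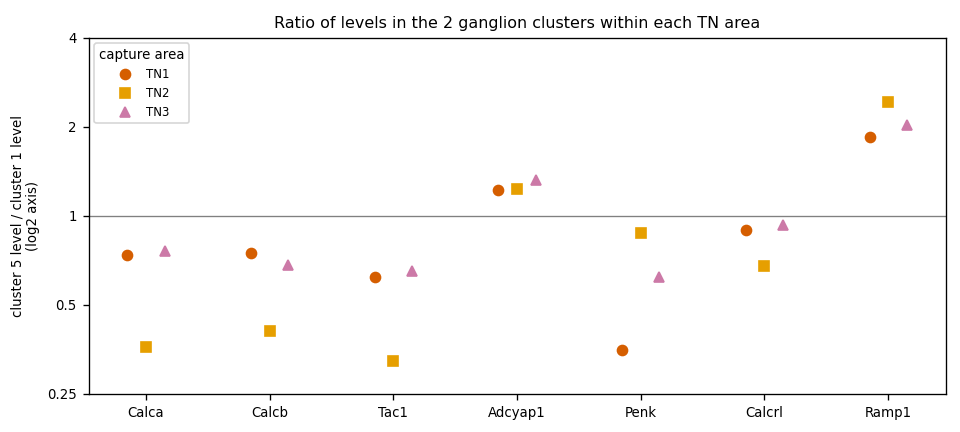
Ratio of the level in cluster 5 to that in cluster 1 (y axis, log2 scale) within each TN area for 7 genes, 1 point per area. Calca, Calcb, Tac1, Penk and Calcrl lie below 1 in all 3 areas, and Adcyap1 (1.22 to 1.32) and Ramp1 (1.85 to 2.42) lie above it.

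The nerve injury list, 8 genes such as Atf3 and Sprr1a that sensory neurons switch on when their axon is damaged, was at 572, 1153 and 611 CPM in ganglion spots of TN1, TN2 and TN3 and at 142 in HC. It was not confined to spots rich in sensory neuron RNA. Where the sensory neuron list took 0.02% to 0.05% of UMIs, it was 182, 455, 638 and 57.2 CPM in TN1, TN2, TN3 and HC. Over 0.2% it was 535, 1090, 611 and 138, so TN3 showed no rise. Which cells its UMIs came from was not tested. Over spots, the rank correlation of Adcyap1 with this list was 0.45, 0.34 and 0.44 in TN1, TN2 and TN3 and 0.01 in HC, as a description. For Calca it was -0.12, -0.46, 0.05 and -0.02. Depth per spot moved with Adcyap1 as well (0.41, 0.13, 0.41 and 0.20). Over the 29 sums by cluster and area, the genes most like Adcyap1 were Gap43, Stmn2, Ric8a, Ap1s1 and Rab15 (Pearson r from 0.97 down to 0.94), of which Gap43 and Stmn2 are known for their part in axon growth. Those most like Tac1 were Trpv1, Rprm, Isl1, Krt7 and Tyrp1 (0.97 down to 0.96), Trpv1 being the capsaicin receptor of peptidergic nociceptors. For Calca they were Serpinb6a, Flot2, Ptgir, Tbcd and Ric8a (0.97 down to 0.95), and those for Penk included Hapln4, Ina and Tceal5 (0.88 down to 0.84).

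The wider peptide systems were followed through 46 listed genes in 6 lists, of which 36 could be tested in the ganglion region. None was called with edgeR, 5 had an unadjusted p under 0.05, all higher in TN, against 4.72% of all genes, and 11 were higher and 13 were lower in all 3 TN areas, near the shares of all genes (28.6% and 30%). The 5 were Vip, Gal, Npy, Nts and Pcsk1. Vip, a relative of PACAP, was 39.7, 64.5 and 46.6 CPM in TN1, TN2 and TN3 and 2.52 in HC (log2 fold change 4.31 ± 0.40, edgeR adjusted p = 0.253), and Gal, the galanin precursor, was 239, 716 and 248 against 21.6 (4.21 ± 0.87, adjusted p = 0.496). Npy had 0 UMIs in HC ganglion spots and 2.09 to 3.07 CPM in the TN areas, on average at least 26.9-fold higher than the 3 counts a 0 allows.

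Other sensory neuron peptides had a median log2 fold change of 0.88 over 8 genes tested, against 0.04 over all genes, whereas genes of peptide processing and dense core vesicles had -0.34 over 12, with 7 of the 12 lower in all 3 TN areas, as were 30% of all genes. The sensory neuron markers lay the same way in these spots, with a median of -0.46 over 11 and 6 of the 11 lower in all 3. Among the processing genes, Cpe, which trims peptide precursors, was 697, 627 and 669 against 866. Of the listed peptidergic nociceptor markers, Trpv1, Scn10a and Scn11a were each lower in all 3 TN areas, as were Tac1 and 3 of the 5 listed markers of large myelinated sensory neurons. Without TN1, Vip, Gal and Npy were called as higher and Nmb and Scg2 as lower, in a fit that called 4.91% of genes as higher and 2.81% as lower, and DESeq2 called Vip, Gal and Npy, with 0.872% of genes called as higher. Of the receptor partners, Ramp2 was 99.4 ± 4.87 against 97 (n = 3 and 1), Ramp3 47.6 ± 1.94 against 60 and Adcyap1r1 6.68 ± 2.61 against 10.5.

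Over all spots of an area, the CGRP and substance P genes had lower levels in TN without being called. Tac1 was 544, 366 and 427 CPM in TN1, TN2 and TN3 against 937 in HC (log2 fold change -1.07 ± 0.30, edgeR adjusted p = 0.556), Calca 610, 761 and 581 against 1058 (-0.70 ± 0.27) and Calcb 85.9, 82.8 and 59 against 132 (-0.80 ± 0.28). Ramp1 was higher, 38.6, 70.7 and 87.8 against 25.1 (1.39 ± 0.52). Tac1, Calca and Calcb lay below HC in all 3 TN areas, as did 30.6% of all genes, and Ramp1, Calcrl and Adcyap1 above it, as did 28.7%. At an unadjusted p under 0.05, 3 of the 7 were lower and 1 was higher, against 4.77% and 3.76% of all genes. None of the 7 genes was called, as none of the 14902 tested was (0% with edgeR, where 1271 had an unadjusted p under 0.05, and 144 with DESeq2). The share of UMIs that came from ganglion spots was also lower in each TN area. It was 49.2%, 44.6% and 34.1% in TN1, TN2 and TN3 and 74.5% in HC. Among the TN areas the order of this share was that of Calcb, and not that of Calca or Tac1. The part of this share in the result was not tested. Within ganglion spots the log2 fold changes of Tac1, Calca, Calcb and Ramp1 were -0.43, -0.10, -0.20 and 1.20. Without TN1, Tac1 (-1.24, adjusted p = 0.0245) and Ramp1 (1.66, adjusted p = 0.0173) were called, in a fit that called 6.7% of genes as lower and 8.07% as higher.

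In central myelin, where 9762 genes were tested and 0% were called with edgeR (310 at an unadjusted p under 0.05, and 4 with DESeq2), the CGRP and substance P genes were at the low levels described above. Tac1 was 136, 62.6 and 110 CPM in TN1, TN2 and TN3 against 190 in HC (log2 fold change -0.88 ± 0.38, edgeR adjusted p = 0.9997), and it was called without TN1 (-1.14, adjusted p = 0.0233), where 0.903% of genes were called as lower. Penk was 23 and 31 in TN1 and TN2 and 3.71 in TN3, against 4.02 in HC (2.27 ± 0.95). Calca and Tac1 lay below HC in all 3 TN areas, as did 21.8% of all genes, and none of the 7 lay above it in all 3, as did 21%. Penk was the only one with an unadjusted p under 0.05 and higher, against 2.04% of all genes, and none was lower, against 1.14%. The areas with high Penk were the ones that had central neuron spots, 402 in TN1 and 128 in TN2, where Penk was highest, and their part in this result was not tested. Ramp1 (0.01 ± 0.33) and Adcyap1 (0.26 ± 0.46) lay close to HC, and Calcrl, at 11.7, 22.4 and 20 against 12.6, overlapped it. The peripheral myelin region had 10 spots in TN2 and was not tested, but it could be with 8 or 12 clusters. With 8 clusters HC had 53 spots of this region, against 424 in TN1 and 480 in TN3, and their neuron content was not compared by area. With 8 clusters TN2 had 27 such spots, and none of 10087 genes was called. Ramp1 in that setting was 83.8, 108 and 111 CPM against 42 in HC (1.26 ± 0.32, edgeR adjusted p = 0.145), and Tac1 176, 145 and 171 against 522 (-1.67 ± 0.23, edgeR adjusted p = 0.0860). With 12 clusters none of 12014 genes was called either, and the log2 fold changes were 1.16 for Ramp1 and -1.15 for Tac1. In that setting 305 HC spots lay in a cluster that also scored 0.928 on the sensory neuron list and had Tac1 among its leading genes. TN2 had 18 spots in it and 255 in another cluster of the region, which scored -0.085. The areas were thus compared at unlike neuron content, and its part in the result was not tested.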

How the data were processed

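The deposited counts are UMIs of each gene in each spot over tissue, whole and not normalized, as the authors made them with Space Ranger 1.2.0 (the labels also name STAR). Build and annotation were not given in the sources used here. Each spot was placed in its area by the number after its barcode, in the order of the series description.

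From the counts, genes with a UMI in 10 or more spots (16088) were normalized by SCTransform in R 4.3.3 (Seurat 5.3.0 with sctransform 0.4.2). The 3000 most variable genes, without the 54 member and peptide pathway genes (27 of them among the most variable), gave 30 principal components and, by K-means with 50 starts, 10 clusters. Clusters were named by the list with the highest mean of centred log2(CPM + 5), and left unnamed where the next list came within 0.25.

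The quasi-likelihood test of edgeR 4.0.16 was run on summed counts (filterByExpr, then TMM) where each area had 20 or more spots of the region. It had 2 residual degrees of freedom, and fewer where an area was left out. The fit also draws the spread of each gene toward that of all genes tested. A p-value thus does not rest on the areas of that gene alone. P-values were adjusted over all genes tested at 0.05. DESeq2 1.42.0 was an alternative. Shares of spots were also computed after thinning to 2000 UMIs, among spots that had at least that many. Limits for a count of 0 use 3 counts, and the intervals are 95% and cover counting error only. The test was checked on simulated counts, whose spread was set by the level of a gene alone. They held no spread particular to a gene and no shift of a whole area, so the shares below hold for such counts only. In the ganglion region it called 22.2%, 78.5% and 90.9% of simulated log2 changes of 1, 2 and 3, with 8 false calls. Of changes of 1 it called 6.45% in central myelin and 9.72% over all spots. Changes near 2-fold were thus mostly missed. No doublet caller was applied to spots, and positions of spots were not analysed here. Figures were drawn with matplotlib 3.10.9.

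The members, the lists and the rule for named genes (all members, the listed pathway genes and, for each member, the 5 genes with the highest Pearson r of log2(CPM + 5) over 29 sums by cluster and area, among 11258 genes) were chosen with earlier results of these data known, and a few genes that the rule names are not reported here. Nothing says that TN areas differ by more than the animal, and p-values rest on the spread between these 3 areas, drawn toward that of all genes tested.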

Additional observations from a re-analysis of the deposited data

How the results depend on the processing

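No paired analysis was possible because HC is 1 area whose 2 animals are not told apart and carries no number shared with a TN area. Of 245 member log2 fold changes under alternatives, 224 kept their direction and their side of the threshold, 7 became called and 14 turned sign. No member was called in the main fits, so none could lose a call. No gene was called in the ganglion region with edgeR, against 132 with DESeq2, 3 without a filter on low counts, 6 with 8 clusters, 5 with log-normalised clustering, 284 when scaled to the sensory neuron list and 5 with cluster 1 alone (chosen after seeing the data). Leaving out 1 TN area gave 0 to 1012 calls there, 0 to 280 in central myelin and 0 to 2171 over all spots, the highest in each case without TN1. Central myelin had 0 calls, 4 with DESeq2 and 1 without the filter, and all spots had 0, or 144 with DESeq2. The cause was not tested.

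The members that turned sign in the ganglion region were Calca (0.44 with 8 clusters, 0.42 with log-normalised clustering, 0.12 scaled to the sensory neuron list, 0.49 with cluster 1 alone), Calcb (0.28, 0.25 and 0.31 with 8 clusters, log-normalised clustering and cluster 1 alone) and Tac1 (0.055, 0.077 and 0.13 in the same settings). In central myelin Ramp1, near 0, turned to -0.010 without the filter and -0.00086 with 12 clusters and ranged from -0.21 to 0.19 with 1 TN area left out, and over all spots Penk ranged from -1.29 to 0.27 in this way, positive without TN3. Peripheral myelin could not be tested as defined, since TN2 had 10 such spots, nor with the members used to cluster (11) or log-normalised clustering (13), and its alternatives without a value were not run. In these designs the only replicates are the 3 TN areas, or fewer where 1 was left out, and the spread of a gene is drawn toward that of all genes. Calls made with 1 TN area left out thus lean more on the spread of other genes. Genes of few UMIs such as Calcrl are limited by counting.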

Other observations

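Peptide RNA was concentrated in part of the ganglion spots. The tenth of ganglion spots with the most Calca UMIs held 39.2%, 42.5%, 45% and 34.9% of the gene's UMIs in TN1, TN2, TN3 and HC, and for Tac1 these shares were 49.8%, 52.7%, 53.2% and 39.1%. For Ramp1, a receptor gene with a median of 0 to 2 UMIs per ganglion spot, they were 38.4%, 26.3%, 36.5% and 40.4%. Such concentration was thus not particular to peptide RNA. A single spot held up to 1037 Calca UMIs and up to 594 Tac1 UMIs, against a median per ganglion spot of 15 to 28 and 9 to 22 over the areas. Adcyap1 was more even in TN2, where the tenth of spots with the most held 27.4% of its UMIs, than in the other areas (40.4% to 46.4%). These shares rest on UMIs not corrected for depth, and no difference between areas was tested.

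Gal and Vip, the other peptides with high levels in TN ganglion spots, were also measured outside the ganglion. Gal averaged 143 ± 74.3 CPM in the unnamed cluster 3 (n = 2) and 92 ± 35.7 in central myelin (n = 4), against 311 ± 300 in the ganglion region (n = 4), and Vip 12.7 ± 1.97, 4.58 ± 3.11 and 38.8 ± 26.6. Oprl1, the nociceptin receptor, was highest in the ganglion region at 20.4 ± 3.82 CPM (n = 4) and 12.7 ± 1.69 in central neuron spots (n = 2), unlike the receptors of CGRP and PACAP.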
